A study of Mus musculus with 6 samples.

Results

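Cartilage matrix other than its collagens, and the factors that switch it on, was followed here through 10 genes: Sox9, Sox5, Acan, Comp, Matn1, Matn3, Hapln1, Chad, Prg4 and Cilp. They are 10 of 20655 genes named on the array, and were read by 12 of the 39429 probes of a one-colour Agilent mouse array, every probe whose RefSeq accession names one of these genes, with 2 probes each for Sox5 and Prg4 and 1 for each of the other 8. The RNA came from primary calvarial osteoblasts of newborn CD1 mice, cells cut out of the flat bones of the skull, in 3 groups of 2 arrays. Undifferentiated osteoblasts were grown to confluence in growth medium. Differentiated osteoblasts were then kept for 30 days in differentiation medium. Cabozantinib osteoblasts were kept in the same medium for 30 days together with cabozantinib (XL184), an inhibitor of the receptor tyrosine kinases MET and VEGFR2. Nothing in the labels says that replicates came from separate animals or isolations, so the p-values measure the spread between these samples, which may be technical. A culture isolated from calvaria holds whatever cells the bone digest released, and in such bulk RNA fewer cells of a type and less RNA per cell cannot be told apart.

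Cartilage is built by chondrocytes. The transcription factor SOX9, working with SOX5 and SOX6, turns on the cartilage matrix genes. Aggrecan, the large proteoglycan that holds water in the tissue, is fixed to hyaluronan by link protein, while matrilins, cartilage oligomeric matrix protein and chondroadherin connect the collagen fibrils with the rest of the matrix and with cells. Lubricin, from Prg4, is the lubricant of joint surfaces. The bones of the skull vault form without a cartilage model.

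In 30 days of differentiation medium Matn3, Matn1 and Cilp rose and Prg4 fell, while Sox9, Sox5, Acan, Hapln1 and Comp did not pass the test. With normexp, an alternative background correction, Matn1 and Cilp did not pass in this comparison (adjusted p = 0.109 and 0.999997, limma). Matn3 went from below the background limit to a level at least 101.6-fold higher. With cabozantinib the same 4 genes differed from undifferentiated cells in the same directions. With normexp only the brighter Prg4 probe passed there, and Matn1, Matn3 and Cilp did not (adjusted p = 0.609, 0.112 and 0.623, limma). No probe of the 10 genes passed the test between cabozantinib and differentiated osteoblasts with replicate number as a block. Without the block Matn3 and the brighter of the 2 Prg4 probes passed it (adjusted p = 0.0324 and 0.0321, limma). So did 3414 of all 27230 probes. The promoters of Matn1, Matn3 and Cilp are shown first, because these 3 genes rose in both groups kept in differentiation medium. They are RefSeq windows of build GRCm38.p6, each from 250 bases before to 50 bases after the gene's start. Capitals mark ACCACA, the core bound by RUNX factors such as the osteoblast regulator RUNX2, on either strand.
Matn1, chr4:130944135-130944434, plus strand: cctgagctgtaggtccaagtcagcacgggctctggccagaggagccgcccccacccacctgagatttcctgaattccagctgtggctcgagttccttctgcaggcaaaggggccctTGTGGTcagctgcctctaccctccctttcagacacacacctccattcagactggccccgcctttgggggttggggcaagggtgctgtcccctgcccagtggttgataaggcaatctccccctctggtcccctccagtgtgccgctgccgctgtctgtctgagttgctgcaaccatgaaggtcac
Matn3, chr12:8947679-8947978, plus strand: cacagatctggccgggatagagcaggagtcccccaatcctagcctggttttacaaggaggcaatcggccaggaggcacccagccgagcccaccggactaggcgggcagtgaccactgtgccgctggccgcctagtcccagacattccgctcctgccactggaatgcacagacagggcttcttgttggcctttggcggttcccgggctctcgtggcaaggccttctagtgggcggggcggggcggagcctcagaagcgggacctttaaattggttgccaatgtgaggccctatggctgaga
Cilp, chr9:65264930-65265229, plus strand: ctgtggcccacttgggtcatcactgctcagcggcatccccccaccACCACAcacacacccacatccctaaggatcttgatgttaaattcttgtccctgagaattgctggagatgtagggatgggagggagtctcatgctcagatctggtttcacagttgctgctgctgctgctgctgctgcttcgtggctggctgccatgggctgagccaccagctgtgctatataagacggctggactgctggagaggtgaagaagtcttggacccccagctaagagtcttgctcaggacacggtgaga

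Matn1 held the RUNX core on the opposite strand, with its first base in the window 134 bases before the start, and Cilp held it on the same strand, 205 bases before the start. The Matn3 window did not hold these letters. Sox9, Comp and Prg4 have no window in the table. Of the 7 members with one, 3 held ACCACA (Matn1, Cilp and Hapln1), against 16.8% of all 32851 windows of 300 bases. The core of the SOX motif, AACAAT, was in none of the 7 windows and in 10.7% of all windows. TATAAA was in 1 of the 7, that of Chad, beginning 28 bases before the start, and in 13.6% of all windows. The motifs do not overlap one another in these windows. These are matches of letters, with no measurement of binding.

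All levels below are log2 of the background-subtracted signal relative to the 75th percentile of that array's signals, so a level of 0 is that percentile. A probe was not well above background where the scanner software did not flag it as such. Differences were tested with limma across all probes, blocking on replicate number, and called at an adjusted p below 0.05. Whether same-numbered arrays belong together is in doubt: their deviations from the group means correlated at -0.51 (undifferentiated with differentiated), -0.53 (undifferentiated with cabozantinib) and 0.26 (differentiated with cabozantinib). Values without the block are therefore given where they change a call of the 12 probes, and for some of the other genes. Between 58.8% and 72.9% of the 43020 spots of an array were well above background, and the 75th percentile was a signal of 625 to 1773. The number of arrays, 2 a group, limits the precision.

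**Figure D1:**
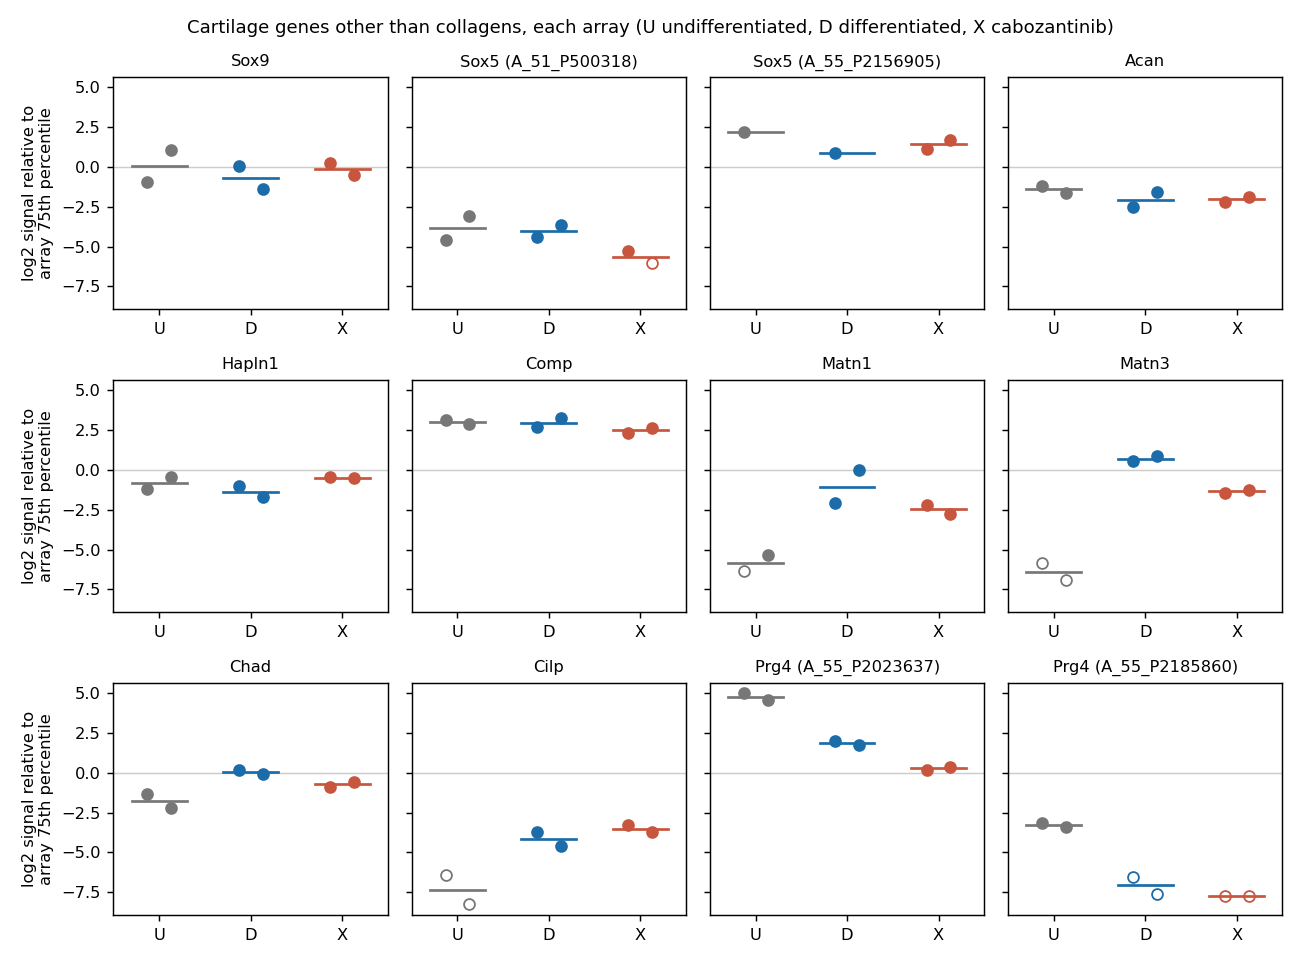
Level of each of the 12 probes on each of the 6 arrays, as log2 signal relative to the array's 75th percentile (vertical axis), for undifferentiated (U), differentiated (D) and cabozantinib (X) osteoblasts. Points are single arrays, replicate 1 on the left, open where the probe was not well above background, and bars are group means. Matn3, Matn1 and Cilp sit lowest in undifferentiated cells, both Prg4 probes sit highest there, and the Sox9 replicates lie far apart.

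The SOX genes come first as the regulators of the rest. In undifferentiated cells Sox9 read -0.96 and 1.07, in differentiated cells 0.05 and -1.39, and with cabozantinib 0.24 and -0.53. All 3 groups overlapped, with the highest level on undifferentiated replicate 2 and the lowest on differentiated replicate 2. The probe is printed 10 times on the array, and the 9 or 10 spots used of an array differed by only 0.030 to 0.084 (SD, log2), while replicates of a group lay further apart than that. The spread between spots leaves out labelling, hybridisation and RNA preparation, so the source of the distance between replicates was not tested. Differentiated minus undifferentiated was -0.72 ± 0.76 (SE), with an adjusted p of 0.748 by limma, and its 95% interval ran from -2.43 to 0.98. This value turned to 0.84 without undifferentiated replicate 2 and to 0.31 without differentiated replicate 2, and it reached -2.29 with an adjusted p of 0.0351 by limma without undifferentiated replicate 1. Over all limma alternatives its adjusted p ran from 0.0351 to 0.999997.

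Sox5, the partner of SOX9, was read by 2 probes that disagree in level and in pattern. The dimmer one, A_51_P500318, read -4.57 and -3.10 in undifferentiated, -4.41 and -3.61 in differentiated and -5.28 and -6.04 in cabozantinib osteoblasts, the last not well above background. Both cabozantinib arrays were below the other 4. The difference was -1.65 ± 0.60 from differentiated cells (adjusted p = 0.137, limma) and -1.83 ± 0.60 from undifferentiated cells (adjusted p = 0.0712, limma). The brighter probe, A_55_P2156905, read 2.19 on undifferentiated replicate 1, 0.87 on differentiated replicate 1 and 1.14 and 1.70 on the cabozantinib arrays. Its spots on the other two arrays were marked as outliers by the scanner software and dropped, so undifferentiated and differentiated cells have 1 value each, the fit left 0 residual degrees of freedom for this probe, and its error is borrowed from all probes. It gave 0.27 ± 0.66 for cabozantinib minus differentiated (adjusted p = 0.913, limma), so the probes of Sox5 pointed in opposite directions in that comparison.

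Acan, Hapln1 and Comp were well above background on all 6 arrays, undifferentiated cells included. Acan, the core protein of aggrecan, read -1.17 and -1.61 in undifferentiated, -2.53 and -1.56 in differentiated and -2.18 and -1.85 in cabozantinib osteoblasts. Hapln1, link protein, read -1.18 and -0.42, then -0.98 and -1.73, then -0.43 and -0.52 in the same order. Comp, a thrombospondin relative that bridges collagen fibrils, read 3.11 and 2.87, then 2.69 and 3.26, then 2.35 and 2.67. Undifferentiated and differentiated arrays overlapped for each of these 3 genes.

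None of the 3 passed the test in any comparison. Differentiated minus undifferentiated was -0.66 for Acan, -0.56 for Hapln1 and -0.01 for Comp, with adjusted p of 0.616, 0.710 and 0.997 by limma. The intervals, from -1.84 to 0.53, from -1.76 to 0.65 and from -1.13 to 1.103, include 0. Cabozantinib minus differentiated was 0.03 for Acan, 0.88 for Hapln1 and -0.47 for Comp (adjusted p = 0.989, 0.392 and 0.704, limma). Hapln1 was higher on both cabozantinib arrays than on both differentiated arrays, and Comp was lower, but groups of 2 are separate in this way for 57.6% of all probes in this comparison, and for 46.3% and 63.8% in differentiated and cabozantinib against undifferentiated cells.

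In differentiated against undifferentiated cells the matrilins had the largest rises among the 10 genes. Matn3, matrilin-3, a protein of growth plate cartilage, was not well above background on either undifferentiated array, where it read -5.82 and -6.94. It read 0.53 and 0.87 in differentiated and -1.46 and -1.23 in cabozantinib osteoblasts. The 3 groups did not overlap, and the differentiated level was the highest. Against the background limit of the undifferentiated arrays it was at least 101.6-fold higher in differentiated cells (fitted difference 7.08 ± 0.55, adjusted p = 0.000241, limma). Under cabozantinib it was at least 24.597-fold higher (5.04 ± 0.55, adjusted p = 0.00110, limma). With normexp background correction the differences were 4.18 in differentiated cells and 2.24 with cabozantinib. Only the first passed the test then (adjusted p = 0.00156 and 0.112, limma). Matn3 entered the test only through the groups where it is high, so it had to differ.

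Matn1, matrilin-1, a protein found in most hyaline cartilage, read -6.32 and -5.33 in undifferentiated osteoblasts, the first not well above background. It read -2.10 and 0.01 in differentiated and -2.18 and -2.78 in cabozantinib osteoblasts. It passed the filter on dim probes only with the groups where it is high. Every differentiated and cabozantinib array was above both undifferentiated ones, and the 2 differentiated replicates stood further apart than any other pair of this probe. The rise was 4.78 ± 0.65 in differentiated cells (27.5-fold, adjusted p = 0.00203, limma) and 3.35 ± 0.65 with cabozantinib (10.2-fold, adjusted p = 0.0128, limma). Without undifferentiated replicate 1 or 2 the first difference was 4.66 or 4.90 with an adjusted p of 0.0541 or 0.0696 by limma. The second was 3.23, 3.47 or 2.27 without undifferentiated replicate 1, undifferentiated replicate 2 or cabozantinib replicate 1, and the adjusted p was then 0.0960, 0.0655 or 0.185 by limma. Over all limma alternatives the adjusted p ran from 8.14e-09 to 0.109 for the first and from 5.17e-05 to 0.609 for the second.

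Cilp, cartilage intermediate layer protein, was not well above background on the undifferentiated arrays, at -6.42 and -8.26. It read -3.72 and -4.60 in differentiated and -3.31 and -3.74 in cabozantinib osteoblasts, so all 4 arrays of differentiation medium were above both others, and those 2 groups overlapped. It was at least 3.50-fold higher in differentiated cells (fitted difference 3.18 ± 0.53, adjusted p = 0.00507, limma) and at least 5.43-fold higher under cabozantinib (3.82 ± 0.53, adjusted p = 0.00319, limma). Cilp too passed the filter only through the groups where it is high. With normexp background correction the Cilp differences were 0.52 in differentiated cells and 0.86 with cabozantinib. Neither passed the test then (adjusted p = 0.999997 and 0.623, limma), so the calls for this dim probe depend on the background correction.

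Chad, chondroadherin, a leucine-rich repeat protein that binds collagen and cells, read -1.33 and -2.20 in undifferentiated, 0.18 and -0.08 in differentiated and -0.88 and -0.55 in cabozantinib osteoblasts. The 3 groups did not overlap. The difference of 1.81 ± 0.52 between differentiated and undifferentiated cells missed the threshold (adjusted p = 0.0565, limma), and the same difference passed it without the replicate block (adjusted p = 0.0259, limma, with 0.00742 to 0.351 over all limma alternatives). Cabozantinib minus undifferentiated was 1.05 ± 0.52 (adjusted p = 0.194, limma).

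Prg4 moved the other way. The brighter probe, A_55_P2023637, read 4.99 and 4.57 in undifferentiated, 2.00 and 1.76 in differentiated and 0.21 and 0.37 in cabozantinib osteoblasts, well above background throughout and with close replicates. In signal units it went from 19822 and 42216 in undifferentiated cells to 4383 and 2204 in differentiated cells and to 1476 and 1238 with cabozantinib. The fall was -2.90 ± 0.49 in differentiated cells (7.46-fold, adjusted p = 0.00527, limma) and -4.49 ± 0.49 with cabozantinib (22.5-fold, adjusted p = 0.00110, limma). The second probe, A_55_P2185860, read -3.12 and -3.40 in undifferentiated cells and was not well above background on the other 4 arrays, at -6.55, -7.58, -7.76 and -7.72. Prg4 was by this probe at least 6.27-fold lower in differentiated cells (adjusted p = 0.00199, limma) and at least 4.638-fold lower with cabozantinib (adjusted p = 0.00137, limma). This second probe passed the filter on dim probes only through undifferentiated cells, so it had to differ and is no independent support for the first. With normexp background correction it gave -1.20 and -1.58 (adjusted p = 0.487 and 0.317, limma).

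Counted over the 12 probes, all of which passed the filter on dim probes, 3 rose and 2 fell in differentiated against undifferentiated osteoblasts, the remaining 7 not passing the test. Of these 5, Matn3, Cilp and the second Prg4 probe could only enter the test by being high in a group. Matn1, well above background on 1 undifferentiated array, also needed the groups where it is high to reach the 2 arrays of the filter. The count is therefore a description of the 12 probes. Of all 27230 probes tested, 4.97% rose and 5.06% fell in this comparison. The median difference of the 12 probes was -0.37, and of all probes 0.08. In cabozantinib against undifferentiated cells, which shares its undifferentiated arrays with the first comparison, again 3 rose and 2 fell, against 4.47% higher and 9.19% lower of 27233 probes. There the median was -0.34 for the 12 probes and -0.39 for all. That overall shift depends on the scaling: 32.7% of all called probes were higher with the 75th percentile and 70.7% with quantile normalization, where the median of all probes was -0.14. With quantile normalization 5 member probes were called as well. With normexp background correction, which adds 50 to every signal and so pulls dim probes together, 2 member probes were called in differentiated cells (Matn3 and the brighter Prg4 probe) and 1 with cabozantinib (the brighter Prg4 probe). Relative to the median of all probes the 5 calls against undifferentiated cells with cabozantinib were 3.74 (Matn1), 5.43 (Matn3), 4.21 (Cilp), -4.10 and -4.08 (Prg4).

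**Figure D2:**
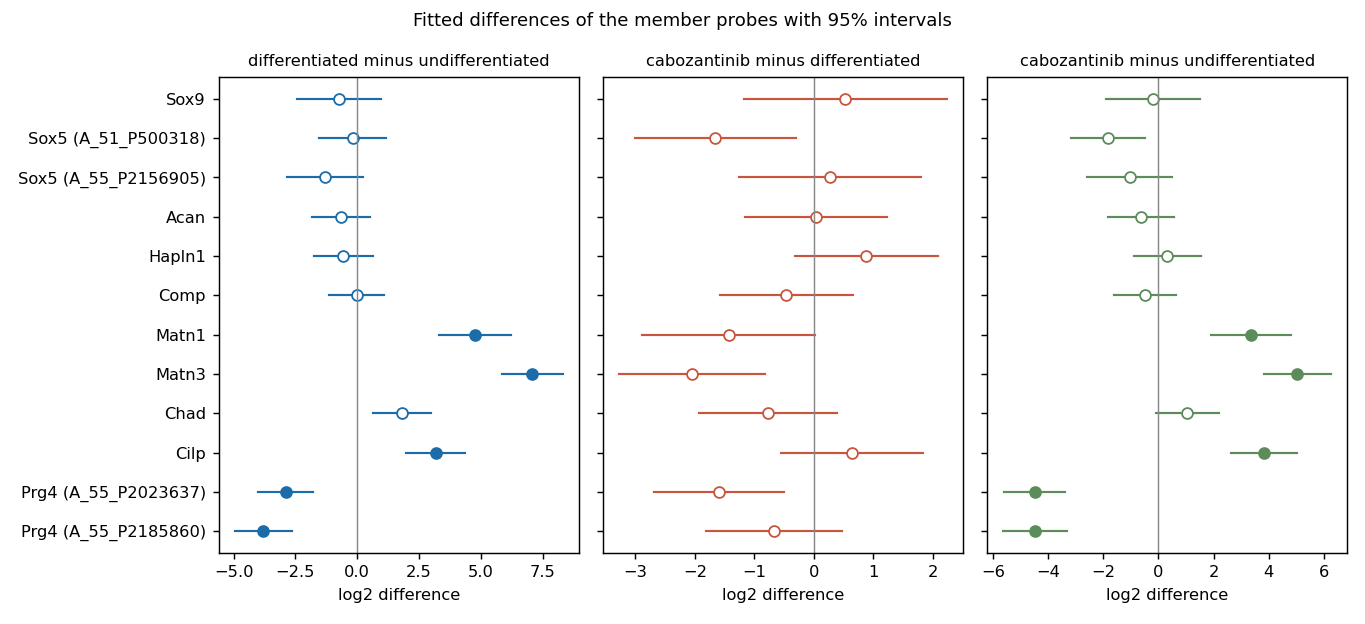
Fitted log2 differences (horizontal axis, with its own scale in each panel) of the 12 probes in the 3 comparisons. Points are the fitted values, filled where the adjusted p was below 0.05, and lines are 95% intervals. Differentiated and cabozantinib osteoblasts show the same 5 filled points against undifferentiated cells, and the middle panel, cabozantinib minus differentiated, has none.

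The comparison of cabozantinib with differentiated osteoblasts asks what the inhibitor adds to 30 days of differentiation. By limma 0 of the 12 probes passed at an adjusted p below 0.05. An unadjusted p below 0.05 was found for 3: Matn3, the brighter Prg4 probe and the dimmer Sox5 probe. It was found for 6336 of all 27230 probes too, so these 3 do not set the members apart. Of all probes 0.14% were called higher and 2.56% lower, and with quantile normalization 0 probes of the whole array were called. The median difference was -0.57 over the 12 probes and -0.27 over all 27230, where quantile normalization gave -0.06. Both cabozantinib arrays were scanned in a session of their own and the other 4 arrays in another, so the scan and the cabozantinib group cannot be told apart in either comparison that uses it.

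Matn3 had the largest of these differences, -2.05 ± 0.55 (adjusted p = 0.0657, limma), and the brighter Prg4 probe was at -1.59 ± 0.49 (adjusted p = 0.0898, limma). Besides passing without the replicate block, these 2 passed in the fit of only the 4 arrays compared, at 0.0297 and 0.0301 by limma, and over all limma alternatives the adjusted p ran from 0.00548 and 0.00746 up to 0.999991. Relative to the median of all probes they were -1.77 and -1.32. Matn1, at -1.43 ± 0.65, and Chad, at -0.76 ± 0.52, were lower on both cabozantinib arrays and did not pass (adjusted p = 0.222 and 0.457, limma), while Cilp differed by 0.63 ± 0.53 (adjusted p = 0.587, limma). For the second Prg4 probe no difference can be given, since neither group was well above background.

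Around the 10 genes, other cartilage genes were read from lists, each gene at its brightest probe. The share of all probes called higher was 4.97% in differentiated and 4.47% in cabozantinib against undifferentiated cells, and lower 5.06% and 9.19%, and the counts below stand beside these shares. Of 7 cartilage collagens 3 rose in differentiated against undifferentiated cells and none fell: Col10a1 by 2.68, Col9a3 by 2.48 and Col9a1 by 2.34. Col2a1, the main collagen of cartilage, was high on every array, from 6.31 to 7.56, and its difference was 0.11 (adjusted p = 0.977, limma). Col10a1, which marks hypertrophic chondrocytes, and Col9a1 were also called higher with cabozantinib, at 2.32 and 1.84 above undifferentiated cells. Of the 8 other cartilage proteins, 7 were tested and 6 rose: Ucma by 7.89, Scrg1 by 7.31, Mia by 6.78, Cytl1 by 4.16, Snorc by 3.21 and Frzb by 2.13. Ucma, Scrg1, Mia and Cytl1 encode small secreted proteins. Col9a3 and Scrg1 were well above background on only 1 undifferentiated array. Both passed the filter on dim probes only with the groups where they are high.

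The families of the members were mixed. Of 16 relatives, 15 were tested and 3 rose in differentiated cells: Matn4, another matrilin, by 4.57, Chadl, a chondroadherin-like gene, by 2.77 and Sox10, a SOX factor of neural crest, by 2.28. With cabozantinib 4 rose against undifferentiated cells, Matn4 by 4.89, Bcan by 3.07, Chadl by 2.47 and Sox10 by 2.25. The thrombospondins Thbs1 to Thbs4, kin of Comp, the other link proteins tested and the aggrecan relatives Vcan and Ncan did not pass in either. Of 12 small leucine-rich repeat proteins, 11 were on the array under these names. In differentiated cells 5 rose, led by Epyc (5.13), Omd (4.39), Kera (4.36) and Ecm2 (3.29), and Fmod fell by 2.81. Kera, well above background on 1 undifferentiated array, passed the filter on dim probes only with the groups where it is high.

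Among 13 regulators and signals of chondrocytes, 8 were tested. Trps1, a zinc finger factor of the growth plate, rose by 2.08 and Gdf5, the growth factor of forming joints, fell by 3.42 in differentiated cells. Gdf5 read 1.74 and 0.22 in undifferentiated, -2.876 and -2.002 in differentiated and -4.40 and -3.78 in cabozantinib osteoblasts. It was 5.07 log2 units below undifferentiated cells with cabozantinib, the same order of groups as Prg4. Between cabozantinib and differentiated cells neither passed in the blocked fit (adjusted p = 0.156 for Gdf5 and 0.0898 for the brighter Prg4 probe, limma). Sox6, which works with SOX5 in cartilage, was well above background on 1 array only and was not tested. Of 17 genes of chondroitin sulfate and hyaluronan synthesis 1 rose in differentiated cells (Chst3, by 2.17), and with cabozantinib Chst3 was higher by 1.80 while the hyaluronan synthases Has1 and Has2 were lower, by -2.40 and -2.09, and Chsy3 by -2.41. For Chsy3 and Has1 the cabozantinib level was below background and the bounds are at least 1.43-fold and at least 2.06-fold lower. Has1 passed the filter on dim probes only through undifferentiated cells, so it had to come out lower.

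Of 7 tested proteases that cut cartilage matrix, among them Adamts4, Adamts5 and Mmp13, 0 passed in any comparison in the blocked limma fit, and Mmp3 was -1.83 in cabozantinib minus differentiated with an adjusted p of 0.0266 by limma without the block. Of 5 tested tendon and joint lining markers, none passed in differentiated cells, and with cabozantinib Tnmd was 2.75 higher and Cd55 2.41 lower than in undifferentiated cells. Between cabozantinib and differentiated osteoblasts 0 of the 77 tested genes of these 8 lists passed in the blocked limma fit, where 0.14% of all probes were called higher and 2.56% lower. Without the block 8 of the 77 passed, beside 3414 of all 27230 probes. The 8 were Ncan, Kera, Chsy3, Has3, Mmp3, Snorc, Cd55 and Tnmd.

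**Figure D3:**
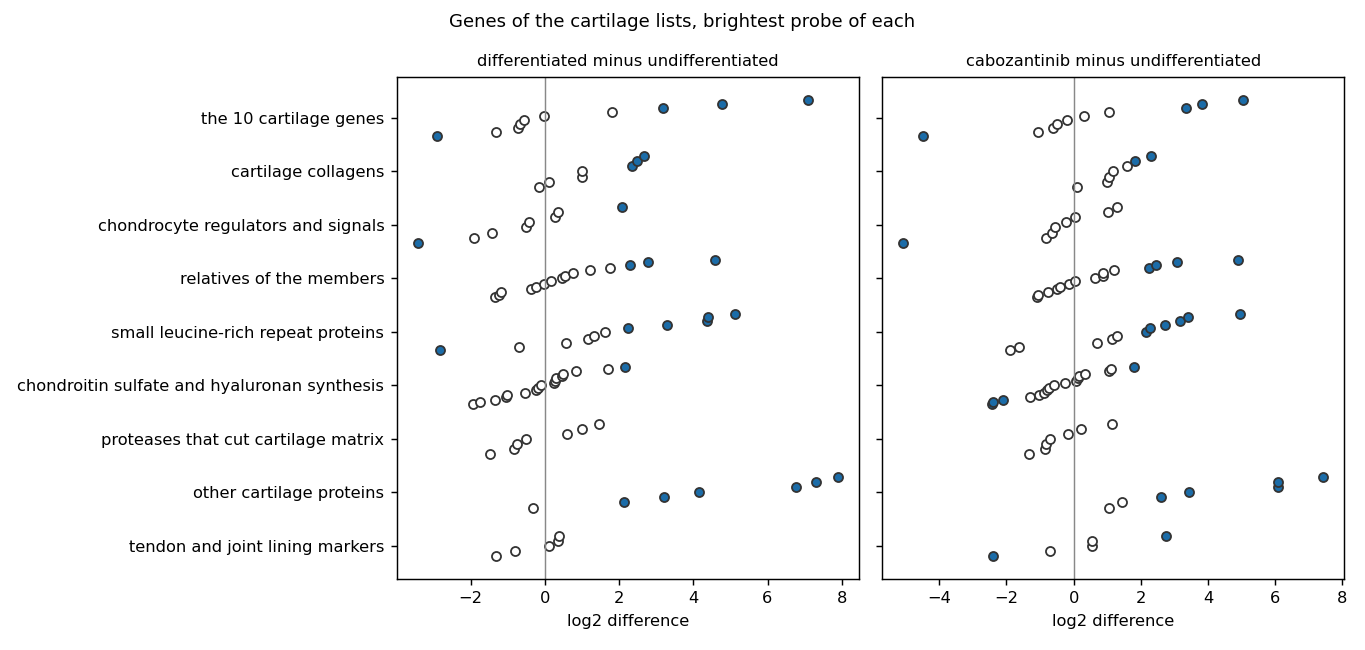
Log2 differences (horizontal axis) of the genes tested from the 10 cartilage genes and 8 lists of related genes, each gene at its brightest probe, for differentiated and cabozantinib against undifferentiated osteoblasts. Each point is a gene, filled where the adjusted p was below 0.05. The list of other cartilage proteins lies farthest to the right in both panels, and the proteases have no filled point.

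By likeness of pattern over the 6 arrays, after centring each gene, the genes nearest to Matn3 among 16109 were Cox8b, a subunit of cytochrome c oxidase, Spink8 and Scrg1, at Euclidean distances of 0.532, 1.179 and 1.196 log2 units. Nearest to Matn1 were Cd48, a surface protein of blood cells, Scin, which severs actin, and Chrdl1, a BMP antagonist, at 1.04, 1.22 and 1.24. Nearest to Prg4 were Hmga2, a chromatin protein of undifferentiated cells, U90926 and Mgarp, at 0.45, 0.60 and 0.63. Hmga2 read 3.83 and 3.63 in undifferentiated, 0.75 and 0.61 in differentiated and -0.48 and -0.65 in cabozantinib osteoblasts, close to the Prg4 steps. This ranking is a description over 6 arrays.

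The cell types behind these levels were checked by markers. Of the osteoblast genes, Col1a1 lay between 6.73 and 8.23 and Alpl between 3.23 and 4.38 on every array. In differentiated cells 5 of 11 tested osteoblast markers rose, among them Phex by 6.38 and Bglap2 by 5.06. The Bglap2 probe may also read its near-identical neighbour Bglap. Spp1 fell by 3.67 (adjusted p = 0.0318, limma, and 0.0546 without the block). The lineage regulators of osteoblasts were dim. Runx2 was well above background on 0 of the 2 differentiated arrays and Sp7 on 1 of the 2, and Sp7 differed by -2.04 in cabozantinib minus undifferentiated cells (adjusted p = 0.0411, limma, and 0.176 without the block). Some markers of other cells also differed between the groups. Summed linear levels of the 7 macrophage and osteoclast markers on the array, in units of the 75th percentile, were 54.8 to 97.3 in undifferentiated, 315 to 473 in differentiated and 282 to 352 in cabozantinib osteoblasts, with 3 of 7 called higher in differentiated cells and Lyz2 at -1.28 (adjusted p = 0.547, limma). The sums of 6 adipocyte markers were 5.04 to 5.64, 65.4 to 90.9 and 56.0 to 56.1, with 4 of 6 called higher and Plin1 at -1.52 (adjusted p = 0.354, limma). Of these 4, Adipoq passed the filter on dim probes only through the groups where it is high. Such sums are set mostly by the brightest probes. In the same order the sums of 5 endothelial markers were 0.788 to 1.24, 1.002 to 1.340 and 0.672 to 0.800, and those of 6 muscle markers 4.37 to 4.62, 0.914 to 1.13 and 2.46 to 3.11. Of the endothelial markers Pecam1 and Kdr were well above background on 6 arrays, Cdh5 on 5, Emcn on 1 and Tek on 0. Cdh5 rose by 2.18 in differentiated cells (adjusted p = 0.0228, limma). In cabozantinib minus differentiated Cdh5 was at -2.40 (adjusted p = 0.0474, limma), while Pecam1 and Kdr passed in neither comparison. With quantile normalization 0 probes of the array, Cdh5 included, were called in cabozantinib minus differentiated. Of the muscle markers Myod1, Myog, Myh3 and Acta1 were well above background on 6 arrays, Ckm on 1 and Actn2 on 0. The part of these cells in the levels of the 10 genes was not tested.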

How the data were processed

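Total RNA of 6 samples was labelled with Cy3 and hybridised to one-colour Agilent arrays. The intensity values are the background-subtracted signals (gProcessedSignal) that the authors' scanner software, Feature Extraction 11.0.1.1, wrote to the deposited files. A deposited table of log2 values for 30439 probes, normalized by the authors, was used as an alternative only. Probes were named through the RefSeq accessions in the scanner files, 27228 of 39429 probes finding a gene. Control spots and outlier flags were left out, spots of a probe averaged, and log2 signals set relative to each array's 75th percentile. The 27236 probes that 2 or more of the 6 arrays measured well above background were fitted with limma 3.58.1 in R 4.3.3, with condition and replicate number as a block, because the study's statistics name a paired test, and p-values were adjusted by Benjamini-Hochberg over all probes. Some values are missing where a spot was dropped, so 27230 or 27233 probes had a test. A probe not well above background on both arrays of a group is given as "at least N-fold", from the bright group's mean over the higher of the dim probe's own signal and the lowest signal well above background. The correlations of same-numbered arrays are given with the results. Every probe of the 10 genes is named. From the other lists the text names called genes, up to 4 a list and comparison, and others chosen after their values were seen. Members and lists were chosen with earlier results of these data known.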

Additional observations from a re-analysis of the deposited data

How the results depend on the processing

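Over the 12 probes and 3 comparisons, 554 values came from limma alternatives, many of which share their estimate, or are the same fit, by construction. Of these 12 lost the call, 22 gained it and 16 changed sign, none of the 16 being a called value. The member probes called, in the order differentiated minus undifferentiated, cabozantinib minus differentiated and cabozantinib minus undifferentiated, were 5, 0 and 5. Dropping the replicate block gave 6, 2 and 5, and fitting the 4 arrays compared gave 5, 2 and 5. Without the block those 4 arrays gave 6, 3 and 5. Normexp gave 2, 0 and 1. Requiring all 6 arrays well above background gave 2, 0 and 1, since it removes Matn1, Matn3, Cilp, the second Prg4 probe and both Sox5 probes by construction, while Chad passed in the first. The methods' t-test at 2-fold and unadjusted p below 0.05 gave 1, 1 and 2 when paired and 3, 2 and 4 when unpaired, and 0 of the 12 probes after Benjamini-Hochberg adjustment in any comparison. Leaving out an array gave 4 to 6, 0 to 2 and 4 to 5, with 2 in the second comparison without either undifferentiated array, which its estimate does not use. The replicate block with exchanged undifferentiated numbers, added after seeing the data because of the negative correlations, gave 6, 2 and 7. These member counts stand beside counts over all 27230 probes that moved too. In differentiated minus undifferentiated those were 7363 with exchanged numbers, 3789 without the block and 972 with normexp, against 2730 in the main fit. Scan as a block could not be fitted, since cabozantinib has a scan of its own. Over all probes cabozantinib minus differentiated called 734, but 3414 without the block and 0 with quantile normalization or the authors' values; the cause was not tested.

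Signs that changed with an array left out, as ranges of differentiated minus undifferentiated, were -2.29 to 0.84 for Sox9, -0.90 to 0.54 for Sox5 (A_51_P500318), -0.36 to 0.33 for Comp and -1.14 to 0.0318 for Hapln1. For cabozantinib minus differentiated they were -0.51 to 1.56 for Sox9 and -0.48 to 0.54 for Acan. For cabozantinib minus undifferentiated they were -1.76 to 1.37 for Sox9 and -0.26 to 0.91 for Hapln1. Acan in cabozantinib minus differentiated was -0.0142 with normexp against 0.0304, and the brighter Sox5 probe in cabozantinib minus undifferentiated was 0.0774 with the authors' values against -1.04.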
